A study of Solanum lycopersicum with 4 samples.

Results

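The genes described here are 9 members of the circadian clock and its CONSTANS-like output in tomato (Solanum lycopersicum), out of 34727 gene identifiers in the deposited table. They were chosen by identifier: LHY, LNK2, TOC1, both copies of GI, ELF3, EID1, COL1 and COL3. Their levels were measured by RNA sequencing of shoot meristems from tmf mutant plants, which carry a mutation in TERMINATING FLOWER (TMF), and from wild-type plants. Meristems of both genotypes were collected 8 days after germination, as late vegetative meristems, and fixed in acetone. There were 2 biological replicates of each genotype, each of them pooled from several plants. The sources used here give no allele, cultivar, light regime or hour of harvest.

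The circadian clock of plants is a loop of transcription factors that repress each other in turn over the day, worked out mainly in Arabidopsis thaliana. Proteins that accumulate around dawn, such as LHY, hold down genes of the evening such as TOC1 and GI, and evening proteins in turn hold down LHY. The level of a clock gene in a single sample therefore depends on the hour at which the tissue was taken. In many plants the clock also times flowering through CONSTANS and its relatives, whereas tomato is largely day-neutral. Domesticated tomato is known to carry altered alleles of EID1 and LNK2 that slow its clock.

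The unit of level is the normalised read, scaled to 10000000 gene-assigned reads in each library. The mutant libraries held 19674165 reads (replicate 1) and 17540331 reads (replicate 2), and the wild-type libraries 28310492 and 22977411. A gene with 0 reads could still have a level of 1.06 to 1.71 normalised reads, by library (3 reads, counting error only). TMF (Solyc09g090180.1.1) was at 6.1 and 6.27 normalised reads in tmf meristems, against 1238 and 2224 in wild-type meristems, so the libraries matched their labels at the mutated gene. The shoot meristem genes TKN2, WUS, CLV3 and GOB were read in all 4 libraries. Meristems of the same genotype were not alike: mutant replicate 1 had the highest level of 3 of these 4 genes and the lowest level of 12 of 15 photosynthetic genes. Over all genes tested, 24.6% were highest and 31.3% lowest in that library.

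None of the clock and CONSTANS-like genes passed the test between genotypes. Of the 9 members, 8 had a mean of at least 1 normalised read and were tested, and 0 were called at a Benjamini-Hochberg adjusted p under 0.05 over all 21437 genes tested (limma). Over all genes tested, 0.215% were called. LHY alone, 1 member, was under 0.05 before adjustment (limma), as were 6.2% of all genes tested. On the reads recovered from the same values, 0 members were called at an adjusted p under 0.05 by edgeR's quasi-likelihood test, which called 0.252% of all genes, or by DESeq2, which called 1.04% of those it adjusted. Before adjustment, edgeR placed the 2 GI copies under 0.05 and LHY above it, with 6.47% of all genes under 0.05. The values by library nevertheless differed in direction between the dawn gene and the GI copies. LHY was at a higher level in both mutant libraries than in both wild-type libraries, and both GI copies were at a lower level in both mutant libraries.

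**Figure D1:**
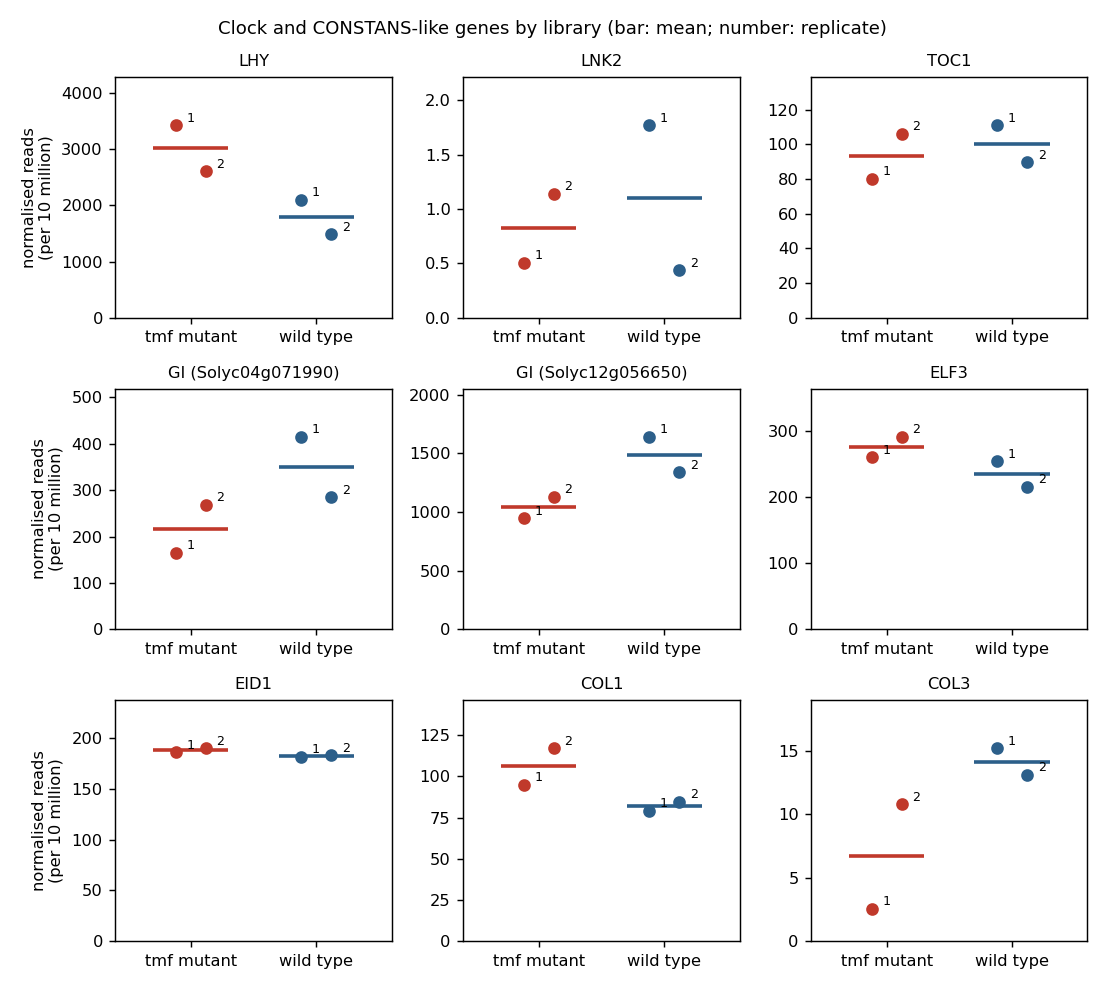
Normalised reads (reads per 10000000, linear axis from 0) of the 9 genes in the 4 libraries, with tmf mutant on the left and wild type on the right of each panel; points are libraries, numbers are replicates and bars are genotype means (n = 2 each). LHY lies above and both GI copies lie below the wild type in both mutant libraries, EID1 is nearly level, and LNK2 stays below 2 normalised reads.

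The morning members were LHY and LNK2. LHY (Solyc10g005080.2.1), a MYB-type transcription factor that in Arabidopsis peaks at dawn, was at 3424 and 2606 normalised reads in tmf meristems, against 2101 and 1488 in wild-type meristems. The genotypes did not overlap, and within each genotype replicate 1 was the higher. The mutant mean was 3015 ± 578 and the wild-type mean 1794 ± 433 (SD, n = 2 each), a ratio of 1.68. The log2 fold change was 0.76 ± 0.28 (SE), with a 95% interval of 0.11 to 1.40 (limma adjusted p = 0.68). Replicates differed by 0.39 on the log2 scale in tmf meristems and by 0.50 in wild-type meristems, less than the genotype means did. Mutant replicate 2 and wild-type replicate 1, however, were closer to each other than either pair of replicates. A log2 fold change at least as large in either direction was found in 12.5% of all genes tested. These values rest on 6736 and 4571 reads in tmf meristems and 5948 and 3419 in wild-type meristems, so that counting error is small beside the difference between replicates.

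LNK2 (Solyc01g068560.2.1), in Arabidopsis a daytime coactivator of evening genes, was barely read. It had 1 and 2 reads in mutant replicates 1 and 2, and 5 and 1 reads in wild-type replicates 1 and 2. In normalised reads this was 0.508 and 1.14 in tmf meristems and 1.77 and 0.435 in wild-type meristems, and the genotypes overlapped. The ratio of the pooled reads, mutant over wild type, was 0.689 with an exact 95% counting interval of 0.112 to 3.23. At this depth no difference of LNK2 could be seen, and the gene fell below the minimum level for the test.

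The evening members were the 2 GI copies, TOC1 and ELF3. GI encodes GIGANTEA, a large protein that in Arabidopsis stabilises the F-box photoreceptor ZTL and promotes CONSTANS expression. GI (Solyc12g056650.1.1) was at 946 and 1133 normalised reads in tmf meristems, against 1642 and 1340 in wild-type meristems. Its mean was 1040 ± 132 in tmf meristems and 1491 ± 214 in wild-type meristems (SD, n = 2 each), a ratio of 0.697. The log2 fold change was -0.52 ± 0.24 (SE), with a 95% interval of -1.06 to 0.02 (limma adjusted p = 0.83). Its replicates differed by 0.26 on the log2 scale in tmf meristems and 0.29 in wild-type meristems, less than the genotype means did. The nearest mutant and wild-type libraries were slightly closer to each other than either pair of replicates.

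GI (Solyc04g071990.2.1) was at 165 and 269 normalised reads in tmf meristems, against 415 and 285 in wild-type meristems. The genotypes did not overlap, but mutant replicate 2 and wild-type replicate 2 were close. The log2 fold change was -0.71 ± 0.31 (SE), with a 95% interval of -1.43 to 0.01 (limma adjusted p = 0.81). Its replicates differed by 0.70 on the log2 scale in tmf meristems and 0.54 in wild-type meristems, so the genotype difference was about as large as the difference between mutant replicates. The log2 fold change was -0.36 without mutant replicate 1 and -0.43 without wild-type replicate 1. Both copies had the same order of libraries, with wild-type replicate 1 highest, then wild-type replicate 2, mutant replicate 2 and mutant replicate 1. The sources used here do not say how reads matching both copies were counted, so the 2 copies may share reads.

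TOC1 (Solyc06g069690.2.1), the pseudo-response regulator that represses dawn genes in the evening, did not separate the genotypes. It was at 80.3 and 106 normalised reads in tmf meristems, against 111 and 89.7 in wild-type meristems. The log2 fold change was -0.11 ± 0.31 (SE), with a 95% interval of -0.82 to 0.59 (limma). ELF3 (Solyc08g065870.2.1), the scaffold of the evening complex that represses growth and clock genes at night, was at 260 and 291 in tmf meristems, against 254 and 215 in wild-type meristems. Its log2 fold change was 0.23 ± 0.24 (SE), with a 95% interval of -0.31 to 0.78 (limma). Mutant replicate 1 and wild-type replicate 1 were nearly level for ELF3, and the genotypes differed by no more than the wild-type replicates, which were 0.24 apart on the log2 scale. TOC1 and ELF3 thus did not share the lower values of the GI copies in tmf meristems.

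EID1 (Solyc09g075080.2.1), an F-box protein known in Arabidopsis from phytochrome A light signalling, had the most even levels of the 9 genes. It was at 186 and 190 normalised reads in tmf meristems, against 182 and 183 in wild-type meristems, and its highest library was 1.04 times its lowest. The log2 fold change was 0.04 ± 0.24 (SE), with a 95% interval of -0.51 to 0.59 (limma), and it turned to between -0.03 and -0.01 when libraries were rescaled by TMM or DESeq2 size factors and in edgeR and DESeq2. The interval allows a change of about 0.5 on the log2 scale either way, because limma takes the spread from genes of similar level as well as from these values.

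COL1 and COL3 are B-box zinc finger genes of the CONSTANS family that lie close together on chromosome 2. COL1 (Solyc02g089540.2.1) was at 95 and 117 normalised reads in tmf meristems, against 79.1 and 84.4 in wild-type meristems, a ratio of means of 1.3. Its log2 fold change was 0.37 ± 0.29 (SE), with a 95% interval of -0.31 to 1.04 (limma adjusted p = 0.99). COL3 (Solyc02g089500.2.1) was at a low level, with 2.54 and 10.8 normalised reads in tmf meristems and 15.2 and 13.1 in wild-type meristems. This was 5 and 19 reads in tmf meristems and 43 and 30 in wild-type meristems. COL3 had the log2 fold change farthest from 0 among the tested members, -1.22 ± 0.63 (SE), with a 95% interval of -2.68 to 0.24 (limma adjusted p = 0.88). The value rested mainly on mutant replicate 1: without that library it was -0.35, and without mutant replicate 2 it was -2.09. The neighbouring identifier Solyc02g089520, picked out because its number lies between them, was at 15.8 and 29.6 in tmf meristems, against 35.7 and 18.7 in wild-type meristems.

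**Figure D2:**
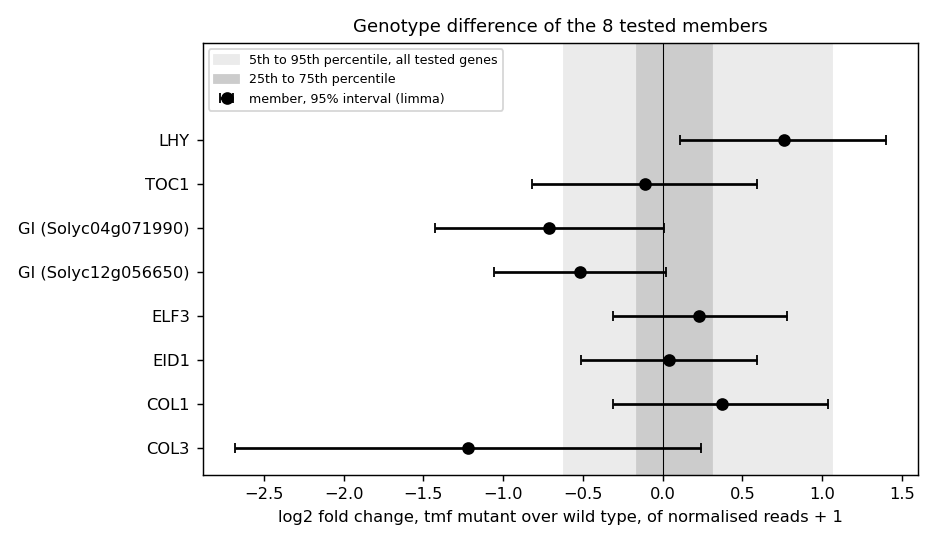
Log2 fold change of normalised reads + 1, tmf mutant over wild type, for the 8 tested members; points are limma estimates, lines their 95% intervals, and grey bands the ranges of all tested genes. LHY is the only member whose interval lies wholly above 0 before adjustment for multiple tests, and the GI intervals end at 0.01 and 0.02. The 5th and 95th percentiles of all tested genes are -0.62 and 1.06.

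Counted over the 8 tested members, 4 had both mutant libraries above both wild-type libraries, which 20.7% of all genes tested did, and 3 had both below, which 12.1% did. Over both directions 7 of the 8 members did not overlap, beside 32.8% of all genes tested. EID1 and ELF3 are among these 7 with differences of 0.04 and 0.23 on the log2 scale, so the count says little about size. These counts hold for the deposited scaling. The TMM factors of the libraries ran from 0.9649 to 1.065, a wider range than that of the EID1 levels. The median log2 fold change of the members was -0.04, beside 0.04 for all genes tested. The members were chosen with results of these data known, so no p-value is given for them as a group.

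The comparison of morning with evening genes addresses whether libraries could differ in their phase of the clock. For each library, the mean log2 level of the 4 evening members was taken minus that of the 2 morning members. This difference was 1.74 and 2.07 in mutant replicates 1 and 2, against 2.30 and 2.67 in wild-type replicates 1 and 2. The means were 1.90 ± 0.23 in tmf meristems and 2.48 ± 0.27 in wild-type meristems (SD, n = 2 each), 0.58 lower in tmf meristems. The evening mean was thus lower relative to the morning mean in both mutant libraries. This did not hold for every gene, as TOC1 overlapped between genotypes and ELF3 was higher in both mutant libraries. Mutant replicate 2 and wild-type replicate 1 differed less in this measure than the replicates of either genotype did. With 0.1 added to each level in place of 1, the values were 2.39 and 2.45 in tmf meristems. In wild-type meristems they were 2.57 and 3.38. Among single genes, 32.8% of all genes tested had no overlap between genotypes in either direction. In this measure LNK2, at 5 reads or fewer, counts as much as LHY.

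With LHY as the only morning gene and TOC1 and both GI copies as evening genes, the differences were -3.87 and -3.03 in tmf meristems and -2.31 and -2.19 in wild-type meristems. The mutant was 1.20 lower on average, with an SD of 0.60 between mutant libraries and 0.08 between wild-type libraries. The 2 mutant libraries were farther apart than mutant replicate 2 and wild-type replicate 1 were. The ratio of LHY to GI (Solyc04g071990) in normalised reads, not corrected for gene length, was 20.8 and 9.7 in tmf meristems, against 5.06 and 5.23 in wild-type meristems. The ratio of LHY to GI (Solyc12g056650) was 3.62 and 2.3 in tmf meristems, against 1.28 and 1.11 in wild-type meristems. For TOC1 the ratio was 42.6 and 24.6 in tmf meristems, against 18.9 and 16.6 in wild-type meristems. All 3 ratios were highest in mutant replicate 1 and next in mutant replicate 2, and the 2 wild-type libraries were close to each other. The 3 ratios share LHY, which alone was highest in mutant replicate 1 and next in mutant replicate 2, so they are not separate results. TOC1 itself overlapped between genotypes. The ratios were computed after the values were seen.

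**Figure D3:**
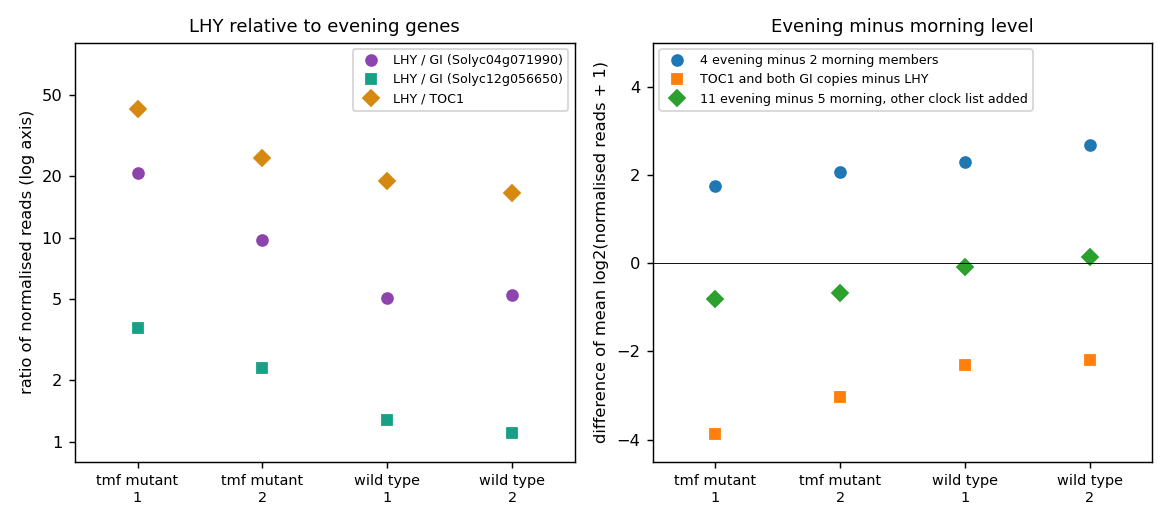
Left, ratio of LHY to each GI copy and to TOC1 in normalised reads (log axis) in each library; right, mean log2(normalised reads + 1) of evening genes minus that of morning genes for 3 choices of genes, with tmf mutant libraries left of wild-type libraries. LHY relative to GI is highest in mutant replicate 1 (20.8 and 3.62). The evening minus morning level is lower in both mutant libraries than in both wild-type libraries for all 3 choices. The 3 choices share LHY, TOC1 and both GI copies, so they are not separate results.

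The opposite directions of LHY and the GI copies between genotypes recurred between the mutant replicates but not between the wild-type replicates. Between the mutant replicates LHY and the GI copies went in opposite directions: replicate 1 had the higher LHY and the lower GI values. Between the wild-type replicates they went together: replicate 1 had the higher LHY value and the higher value of both GI copies. Photosynthetic genes, many of which respond to light and the clock, also varied among these libraries. The summed level of 15 RBCS and CAB genes, which encode the Rubisco small subunit and light-harvesting proteins, was 20718 and 42267 normalised reads in tmf meristems, against 35497 and 40744 in wild-type meristems. RBCS2A (Solyc03g034220) was the largest part of this sum, at 11347 and 18648 in tmf meristems, against 13742 and 16994 in wild-type meristems. The summed level of the 4 shoot meristem genes was 3991 and 1892 in tmf meristems, against 1604 and 2236 in wild-type meristems. TKN2 alone was 2797 of the 3991 in mutant replicate 1. Mutant replicate 1, which had the highest LHY and the lowest GI, TOC1 and COL3 levels, thus had the lowest RBCS and CAB sum and the highest shoot meristem sum. In bulk tissue, fewer cells of a type and less RNA per cell cannot be told apart. The part of tissue composition, harvest time or light in the LHY and GI values was not tested.

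A further list of 15 identifiers holds other genes taken here to belong to the clock, each listed under a clock gene name. Of these, 14 were tested and 0 passed in either direction (limma); 2 were under 0.05 before adjustment, beside 6.2% of all genes tested. Log2 fold changes ran from -0.63 to 0.89 on this list, with a median of -0.07. The reference table of gene names does not pair these identifiers with those names, so they are given by identifier. On the deposited scaling, the 3 identifiers listed as morning genes all had both mutant libraries above both wild-type libraries, as did 20.7% of all genes tested. Their median log2 fold change was 0.73. For 1 of them, Solyc06g036300, the values were close, at 88.9 and 91.8 normalised reads in tmf meristems, against 86.9 and 84.9 in wild-type meristems (log2 fold change 0.07). Of 6 tested identifiers listed as evening genes, 2 had both mutant libraries below both wild-type libraries and none had both above, beside 12.1% and 20.7% of all genes tested. The median log2 fold change of the 6 was -0.15. Of the 4 tested identifiers listed as day genes, none was without overlap between genotypes, beside 32.8% of all genes tested. Their median log2 fold change was -0.21. The 1 identifier with no fixed phase overlapped as well. Of the 2 lower ones, Solyc06g005680 had only 5 to 15 reads in a library. With all listed morning and evening identifiers added, the evening minus morning level was -0.81 and -0.68 in tmf meristems, against -0.08 and 0.14 in wild-type meristems. At equal weight this took in LNK2 and Solyc06g051680, an evening identifier too low to be tested. The latter had 1 and 0 reads in tmf meristems and 3 and 4 in wild-type meristems.

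On that list Solyc02g036370.2.1 had the highest log2 fold change. It was at 248 and 255 normalised reads in tmf meristems, against 140 and 131 in wild-type meristems, a log2 fold change of 0.89 ± 0.24 (SE), with an adjusted p of 0.38 (limma). Solyc10g084370.1.1 was at 260 and 298 in tmf meristems and at 168 in both wild-type libraries, a log2 fold change of 0.73 ± 0.24 (SE), with an adjusted p of 0.54 (limma). In both genes the genotypes were farther apart than the replicates. Solyc04g049670.2.1, listed as a day gene, was at 1320 and 2616 in tmf meristems, against 3431 and 2366 in wild-type meristems. The genotypes overlapped (log2 fold change -0.62, limma adjusted p = 0.94).

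Among 17 identifiers listed for photoperiod output, namely CONSTANS-like, DOF-type repressor and florigen-like genes, 15 were tested and 0 passed (limma). Log2 fold changes ran from -0.63 to 1.43, with a median of 0.06. Solyc05g007880.2.1 had the highest value. It was at 329 and 397 normalised reads in tmf meristems, against 135 and 132 in wild-type meristems, a ratio of means of 2.72. Its log2 fold change was 1.43 ± 0.24 (SE), with a 95% interval of 0.88 to 1.98 (limma adjusted p = 0.09), and the DESeq2 adjusted p was 0.0011. Its replicates differed by 0.27 on the log2 scale in tmf meristems and 0.04 in wild-type meristems. Solyc09g074560.2.1 was at 21.3 and 34.2 in tmf meristems, against 18 and 15.2 in wild-type meristems. Solyc12g006240.1.1 was at 7.12 and 21.7 in tmf meristems, against 22.3 and 17.8 in wild-type meristems. SP5G, a florigen-like repressor of flowering, had no read in any of the 4 libraries.

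Of 15 light input genes, 15 were tested and 0 passed (limma), with a median log2 fold change of 0.09 and a range of -0.36 to 0.95. HY5, a bZIP transcription factor that promotes light responses, was at 482 and 326 normalised reads in tmf meristems, against 178 and 236 in wild-type meristems. Its log2 fold change was 0.95 ± 0.28 (SE) with an adjusted p of 0.45 (limma), more than the difference of 0.57 between the mutant replicates. The nearest mutant and wild-type libraries were closer to each other than the mutant replicates were. The cryptochrome genes CRY3 and CRY2 encode blue-light receptor family proteins. CRY3 was at 294 and 244 in tmf meristems, against 212 and 166 in wild-type meristems, and CRY2 at 322 and 353 against 294 and 209. The phytochrome genes PHYA, PHYB1, PHYB2, PHYE and PHYF, which encode red and far-red light receptors, overlapped between genotypes.

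**Figure D4:**
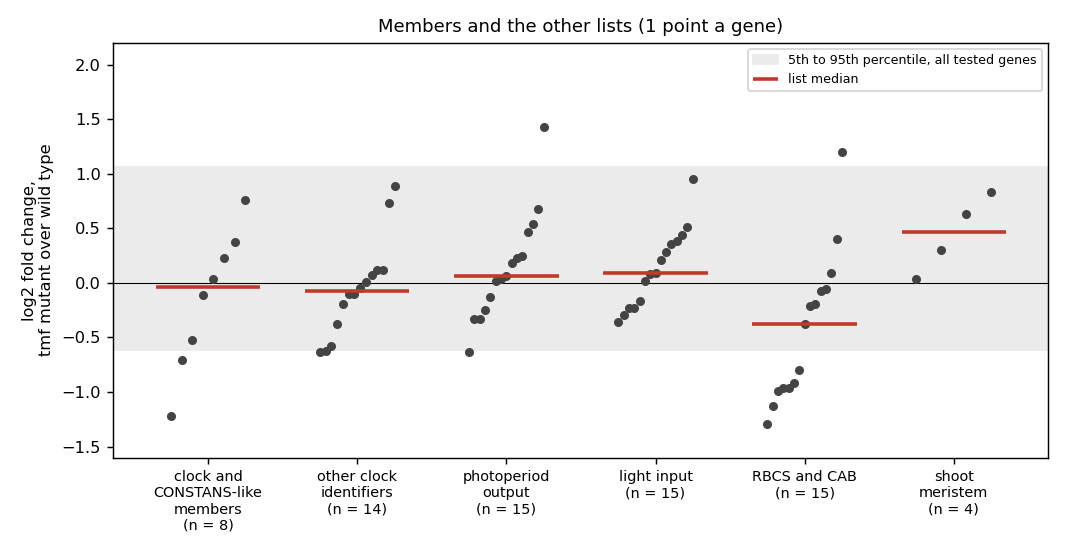
Log2 fold change, tmf mutant over wild type, of every tested gene of the members and of the 5 other lists (1 point a gene). Red lines are list medians, and the grey band runs from the 5th to the 95th percentile of all tested genes, -0.62 to 1.06. The members spread to both sides of 0 with a median of -0.04, the RBCS and CAB genes have a median of -0.38 and the shoot meristem genes of 0.46.

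The 15 RBCS and CAB genes were all tested and 0 passed (limma), with 12 negative log2 fold changes. Solyc03g005780.1.1 was at 366 and 722 normalised reads in tmf meristems, against 1241 and 1280 in wild-type meristems (log2 fold change -1.29, limma adjusted p = 0.3). It passed in 3 of 14 alternatives, DESeq2 and both replicate blocks, with adjusted p from 0.0067 to 1 over the 14. Solyc02g070970.1.1 was at 68.6 and 113 in tmf meristems, against 188 and 201 in wild-type meristems (log2 fold change -1.13). Solyc02g071000.1.1 went the other way, at 19.3 and 47.3 in tmf meristems against 9.89 and 16.1 in wild-type meristems (log2 fold change 1.20). These genes have close copies and may share reads. Of the shoot meristem genes 0 of 4 passed (limma). TKN2, a KNOX homeobox gene, was at 2797 and 1062 in tmf meristems, against 841 and 1117 in wild-type meristems. CLV3, the stem cell signal peptide gene, was at 114 and 25.7 against 18 and 66.6, and WUS, the stem cell organiser gene, at 157 and 46.7 against 51.9 and 92.7. GOB did not share this order: it was at 923 and 758 in tmf meristems, against 694 and 960 in wild-type meristems (log2 fold change 0.04).

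The genes whose level over the 4 libraries was most like that of LHY were sought among 70 other tested genes of the members and lists. Likeness was the Euclidean distance between log2 levels centred on each gene's mean. CRY3 was nearest at a distance of 0.28, followed by Solyc02g067230.2.1 at 0.43 and Solyc02g036370.2.1 at 0.44. Of all 21436 other genes tested, 80, or 0.373%, were at least as near to LHY as CRY3 was. With 4 libraries, such nearness is a description of these values. Solyc02g067230.2.1 was at 148 and 139 normalised reads in tmf meristems, against 109 and 97.5 in wild-type meristems.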

How the data were processed

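Per the labels' protocols, RNA came from acetone-fixed meristem pools, and oligo-dT selection of mRNA was followed by cDNA synthesis, size selection and PCR. The submitters' processing notes name Bowtie 0.12.5 and edgeR. No build, annotation, counting tool or strand setting is given in the sources used here. The deposited table holds a normalised read signal for each gene and library. Each library sums to 10000000, and 100% of its values above 0 are whole multiples of the smallest (tolerance 1e-06), worth 1 read (0.508, 0.57, 0.353 and 0.435 in mutant replicates 1 and 2 and wild-type replicates 1 and 2). The whole reads recovered in this way were used for edgeR 4.0.16 and DESeq2 1.42.0, which called 54 and 214 genes.

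The main test fitted genotype alone to log2(value + 1) in limma 3.58.1 (R 4.3.3), with the variance trended on the mean and genes averaging under 1 normalised read left out. For low genes the added 1 makes the fold change too small. P-values are two-sided and adjusted by Benjamini and Hochberg over all 21437 genes tested. The design named limma for a normalised unit and edgeR for counts, and the first case applied. Replicates are pools of plants, and they differed beyond sampling noise (chi-square per degree of freedom 47.6 for mutant and 64 for wild-type pools). The labels name no batch.

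The members and lists were chosen with earlier results of these data known. Names of COL1 and COL3 were placed by the reference table (assembly SLM_r2.1, as CO1 and CO3). The other 7 member names had no entry there and rest on the assignment by which the members were chosen. Over all lists 21 of 75 names were placed by chromosome and within 5 percentage points of relative order. Most other genes were named by a fixed rule. It took any list gene past the threshold and the 3 nearest to LHY. It also took the 3 per list with the largest absolute log2 fold change that average 10 normalised reads or more. Named outside that rule were TMF, GOB, RBCS2A, SP5G, the phytochrome genes, Solyc02g089520, Solyc06g036300, Solyc06g005680 and Solyc06g051680. The permutation test planned for the evening minus morning level is not reported, because its genes were chosen with results known. Ratios of LHY to GI and TOC1 were computed after the values were seen. No sequences were used here, and a planned search of promoter motifs was not run.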

Additional observations from a re-analysis of the deposited data

How the results depend on the processing

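No member passed the threshold in any of the 14 alternatives, and LHY, both GI copies, ELF3, COL1 and COL3 kept their sign in all of them. The smallest adjusted p was 0.25 for LHY, and 0.24 and 0.38 for GI (Solyc04g071990) and GI (Solyc12g056650), all with the crossed replicate block. When 1 library was left out, the log2 fold change lay between 0.51 and 1.00 for LHY, -1.06 and -0.36 for GI (Solyc04g071990), -0.66 and -0.37 for GI (Solyc12g056650), -2.09 and -0.35 for COL3 and -0.31 and 0.09 for TOC1. TOC1 turned positive without mutant replicate 1 (0.09) and without wild-type replicate 1 (0.04). EID1 turned to -0.03 with TMM rescaling and in edgeR, and to -0.01 with DESeq2 size factors and in DESeq2. The same rescalings moved the median log2 fold change of all genes tested, 0.0444 as deposited, to -0.0219 with TMM and -0.00523 with DESeq2 size factors, a shift of like size. The evening minus morning difference stayed negative, from -0.77 to -0.39 with 1 library left out. Of all genes, 46 were called, 28 higher and 18 lower in the mutant. The count was 214 with DESeq2 (152 higher, 62 lower), 368 with a replicate block and 219 with a crossed replicate block, added after seeing the data because same-numbered deviations correlated at -0.109; nothing in the labels says that equal numbers share a batch. Leaving out 1 library gave 6 to 61 calls, with 6 without either wild-type library, and these fits take the spread of a lone library from the other pair. Other settings gave 31 to 54. Solyc05g007880 and Solyc03g005780 passed under DESeq2 and both blocks, Solyc05g007880 with adjusted p from 0.0011 to 0.76 over the 14 alternatives.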
